A study of Mus musculus with 18 samples.

Results

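The 10 genes described here are the transcription factors that answer low oxygen and a set of their classical targets, read in mouse prostate with an intact, deleted or mutated Elac2. They were taken by symbol from the deposited expression tables: Hif1a, Epas1, Hif3a and Arnt, Egln1 and Egln3, and Vegfa, Bnip3, Ankrd37 and Car9. All 10 were found among the 55469 genes of each table. The samples were ventral and lateral prostate lobes of male mice of the strain given as C56NL/6N, in 6 groups of 3 libraries, 18 in all. WT mice (ELAC2+/+), KO mice (ELAC2-/-) and A537T mice (ELAC2A537T) were each taken at 10 and at 30 weeks of age. In the KO a floxed Elac2 exon was removed by Cre under the probasin promoter, which is active in prostate epithelium, so that muscle, vessel and immune cells in the same lobes kept the gene. The A537T change was present in both copies in the whole animal. RNA was extracted from the lobes of these mice and sequenced, and no label says that animals were pooled. Per the labels, mice were matched by litter and age, but no label ties a library to a litter, so the p-values measure the spread between these samples and no litter term could be fitted.

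Cells sense oxygen through prolyl hydroxylases, which use it to mark the alpha subunits of the hypoxia-inducible factors for destruction by the Vhl ubiquitin ligase. When oxygen is short the alpha subunits escape, pair with Arnt and bind short DNA elements beside genes for glycolysis, vessel growth and mitochondrial turnover. Most of this control acts on protein stability, which RNA-seq does not measure, whereas targets such as Egln3, Bnip3 and Ankrd37 change in RNA. Elac2 cuts the 3′ end of transfer RNA precursors in nuclei and in mitochondria, the organelles that use most of a cell's oxygen.

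The 4 tables each hold 1 mutant group beside the WT group of its age, as counts divided by a size factor set within that table (normalized counts below). Whole reads recovered from these values came to 6569642 to 11225281 per library. They are estimates that depend on the table. The same WT library could differ between its 2 tables: Hif3a had 23 and 27 reads in library 3AF, Epas1 772 and 731 in 10AF. None of the 4 comparisons gave a gene with a limma adjusted p under 0.05, Elac2 included: its log2 difference (mutant minus WT) was -0.31 for KO and 0.19 for A537T at 10 weeks, then -0.43 and -0.23 at 30 weeks. Elac2 had 124, 142 and 166 normalized counts in WT beside 119, 111 and 115 in KO at 10 weeks, with 150, 153 and 194 beside 98.4, 151 and 122 at 30 weeks, so that only the younger groups were separate. These values also count reads from exons that were not deleted and from cells without Cre, and so do not check the deletion itself. Libraries also differed in RNA of neighbouring tissues. Among 10-week libraries, 21 skeletal muscle markers took 3.89 to 12.6% of counts in WT and 0.0594 to 2.04% in KO, while 8 seminal vesicle markers took 0.000808 to 4.64% and 6.55 to 10.3%. These ranges do not overlap, so at 10 weeks both tissue shares and the KO genotype cannot be told apart. Basal epithelial markers (Krt5, Trp63 and Krt14) were also higher in KO at 10 weeks without overlap, at 0.00776 to 0.00957% beside 0.00336 to 0.00720% in WT. A537T libraries at 10 weeks held 1.55 to 4.34% skeletal muscle. At 30 weeks skeletal muscle markers stayed at or under 0.0728% in every library, and seminal vesicle RNA was present in 2 of 3 libraries of each mutant, at 6.32 to 9.17%, with at most 0.000335% in all others. Of the prostate's own markers, luminal epithelial genes, led by Sbp, Spink1 and Pbsn, took 0.459 to 3.84% of counts in KO and 3.68 to 13.3% in WT at 10 weeks, ranges that overlap. The 2 markers of dorsal and anterior lobe secretion, 9530053A07Rik and Tgm4, took 0.000650 to 5.27% in WT and 3.38 to 5.89% in KO at 10 weeks. At 30 weeks they took 0.00111 to 5.93% in WT, 0.000935 to 2.61% in KO and 0.0549 to 0.312% in A537T. These ranges overlap, and the part of lobe make-up in the members was not tested. In bulk tissue such as this, fewer cells of a type and less RNA per cell cannot be told apart.

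The level of the 10 genes spanned a wide range in these lobes. Over the 18 libraries, in RPKM (recovered reads per kilobase of merged exon, scaled to the library total), Bnip3 stood highest at 19.8 ± 7.95 (SD). Egln1 at 12.1 ± 2.82, Vegfa at 10.8 ± 3.96, Epas1 at 10.3 ± 4.18 and Hif1a at 10.2 ± 1.98 followed, and these neighbours in the order lay within each other's spread. Arnt came next at 6.05 ± 0.910 on the same scale, with the smallest relative spread of the 10. Egln3 stood at 2.12 ± 0.911, Hif3a at 0.807 ± 0.372 and Ankrd37 at 0.759 ± 0.428, the last pair again within its spread. Car9, which encodes a membrane carbonic anhydrase often used as a marker of hypoxic tumours, was close to absent, with at most 6 reads in any library and 0 in several. A count of 0 still allows up to 3 reads by counting error alone. Car9 did not reach the mean normalized count of 10 needed for a test in any comparison, and Ankrd37 did not at 30 weeks, so 9 members were tested at 10 weeks and 8 at 30 weeks.

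**Figure D1:**
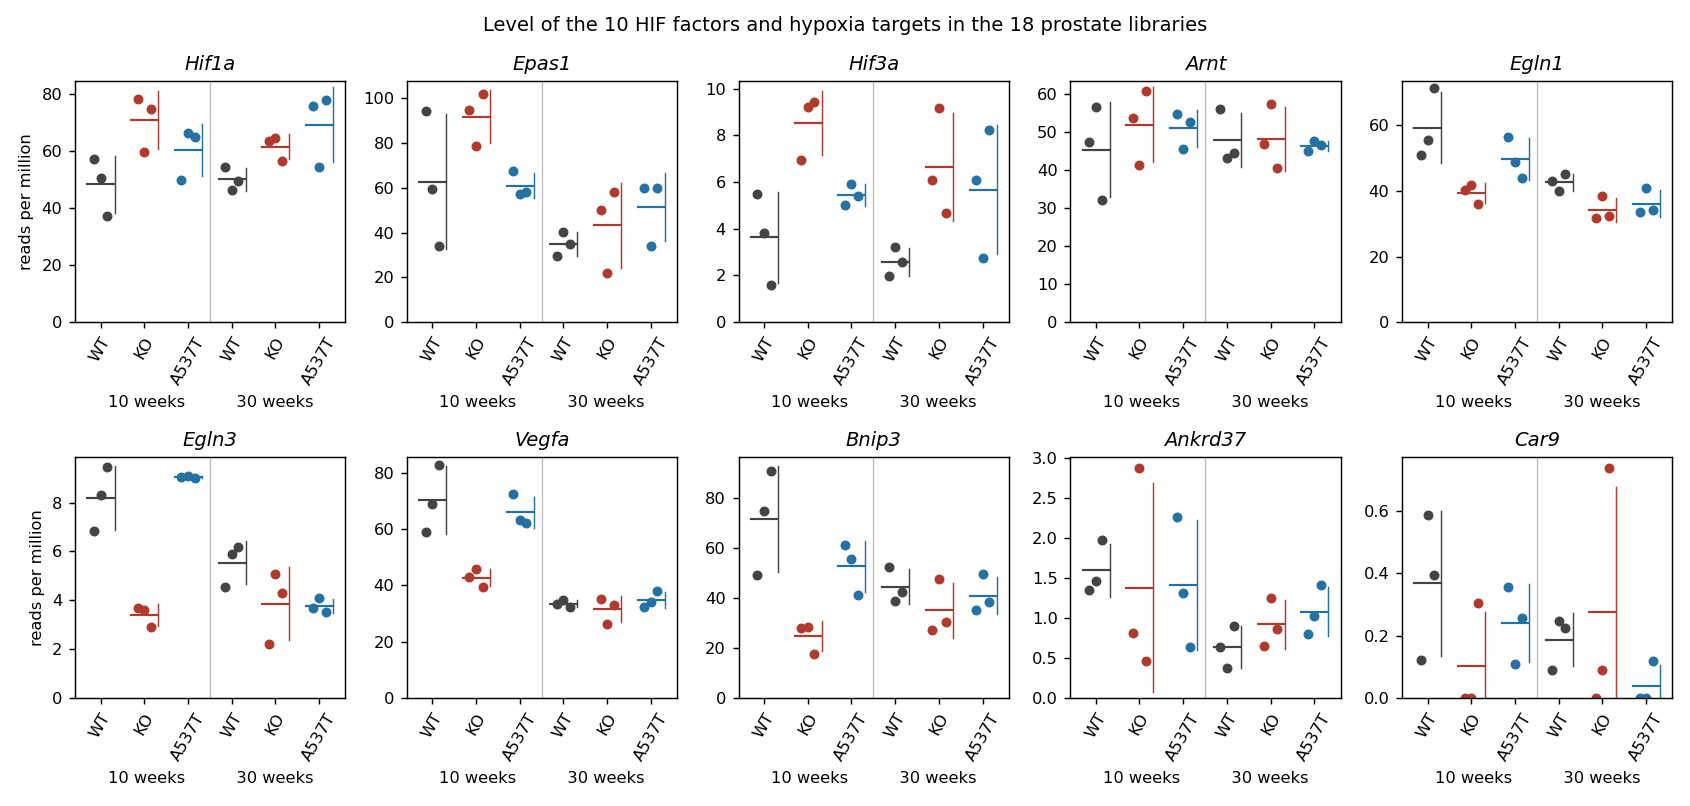
RPM (recovered reads scaled to a common library total, vertical axis, starting at 0) of each of the 10 genes in every library, with 1 point per library, a horizontal bar at the mean of 3 libraries and a vertical bar of 1 SD, cut at 0. At 10 weeks the 3 KO points of Bnip3, Egln3, Vegfa and Egln1 lie below all WT points and those of Hif1a and Hif3a above them.

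The promoters of the members are shown before their values, and any link between the 2 was not tested. Hypoxia-inducible factors bind the core letters ACGTG or GCGTG, which read CACGT or CACGC when the match is on the other strand. These letters were searched on both strands in the 250 bases before each RefSeq start site (build GRCm38.p6), and 9 of the 10 members had an entry in that table, the exception being Epas1. These 9 genes had 10 windows, of which 9 held at least 1 match, as did 38.6% of all 32851 promoter windows. The windows of the 4 members that were lowest in KO, and of Hif3a, were chosen after their values were seen and are given 5′ to 3′ on the gene's strand without bases inside the annotated gene, with matches in capitals. All 5 genes are on the minus strand. They come from chr7:138909520-138909756 for Bnip3, chr12:54203875-54204124 for Egln3, chr8:124949325-124949504 for Egln1, chr17:46032378-46032627 for Vegfa and chr7:17062428-17062677 for Hif3a.
Bnip3: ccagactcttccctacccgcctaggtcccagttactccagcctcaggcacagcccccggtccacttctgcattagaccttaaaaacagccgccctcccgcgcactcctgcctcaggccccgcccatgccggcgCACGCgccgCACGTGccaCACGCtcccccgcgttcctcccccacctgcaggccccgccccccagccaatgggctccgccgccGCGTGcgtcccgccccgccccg
Egln3: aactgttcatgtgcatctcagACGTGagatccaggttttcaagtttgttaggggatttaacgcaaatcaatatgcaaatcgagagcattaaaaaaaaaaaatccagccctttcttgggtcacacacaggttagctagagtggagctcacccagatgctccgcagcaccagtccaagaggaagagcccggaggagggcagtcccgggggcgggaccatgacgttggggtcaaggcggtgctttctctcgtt
Egln1: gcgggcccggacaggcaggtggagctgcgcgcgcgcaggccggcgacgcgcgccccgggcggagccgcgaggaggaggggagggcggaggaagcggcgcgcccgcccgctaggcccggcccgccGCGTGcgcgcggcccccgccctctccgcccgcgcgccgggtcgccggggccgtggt
Vegfa: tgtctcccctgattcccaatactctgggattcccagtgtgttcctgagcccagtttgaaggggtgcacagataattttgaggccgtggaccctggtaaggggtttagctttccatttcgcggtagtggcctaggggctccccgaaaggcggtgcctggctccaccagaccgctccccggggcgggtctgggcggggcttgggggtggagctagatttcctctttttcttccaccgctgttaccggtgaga
Hif3a: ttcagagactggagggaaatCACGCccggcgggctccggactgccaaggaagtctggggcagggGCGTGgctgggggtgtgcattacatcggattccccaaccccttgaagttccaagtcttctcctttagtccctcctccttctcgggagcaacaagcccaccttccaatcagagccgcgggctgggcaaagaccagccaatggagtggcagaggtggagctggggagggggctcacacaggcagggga
The Bnip3 window held 5 matches, the first base of each lying -117, -108, -107, -99 and -35 bases from the start site, and those at -108 and -107 are the same palindrome CACGTG read on both strands. Of all windows, 1.01% hold 5 matches or more and 6.02% hold CACGTG. Egln3 had 1 match at -229 and Egln1 had 2, at -126 and at -68, the latter inside the annotated gene and so not printed. Hif3a had a match at -230 and another at -186. The Vegfa window printed held none of these letters, while a second RefSeq start of Vegfa, inside the annotated gene, had 2. Outside these, Ankrd37 had 4 matches, Hif1a 3, and Arnt and Car9 1 each. The windows of Ankrd37 and Hif1a lie wholly inside the annotated genes, and so does the match of Car9. A match describes letters in a window and not binding, which was not measured.

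The first question was whether loss of Elac2 in the prostate of young adults is accompanied by a change in this pathway. At 10 weeks 4 members were lower in all 3 KO libraries than in any WT library: Bnip3, Egln3, Vegfa and Egln1. Hif1a and Hif3a were higher in all KO libraries than in any WT library. Across the 15089 genes tested, groups did not overlap in 14.3% on the lower side and 11.7% on the higher side, so this was 4 and 2 of 9 members against those shares. The members were chosen with earlier results of these data known. No member passed limma's adjusted threshold, as no gene did (0.0% of genes). At an unadjusted p under 0.05 the same 4 were lower and the same 2 higher, where 11.5% (1728) and 7.97% (1202) of all genes tested did so. Scaled to the same total count, the same 4 and 2 members were on these sides at that level, and all genes split into 1050 lower and 1915 higher.

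The alpha subunits are the oxygen-regulated part of the factor. Hif1a, which encodes the ubiquitous HIF-1 alpha subunit, had 458, 431 and 386 normalized counts in the WT libraries and 583, 485 and 562 in KO. The groups were separate by a narrow margin, and the log2 fold change was 0.35 with a standard error of 0.13 (limma adjusted p = 0.225). Hif1a (chr12:73901375-73947530, plus strand) overlaps a predicted readthrough gene on the same strand, so some of its reads could be assigned to that gene. Hif3a (chr7:17031507-17062427, minus strand) encodes the third alpha subunit, several isoforms of which restrain the other two. It had 44.0, 32.5 and 16.3 normalized counts in WT against 51.6, 74.9 and 70.9 in KO. All KO values were above all WT values, with a log2 fold change of 1.15 ± 0.39 (SE; limma adjusted p = 0.200). Epas1 (chr17:86753700-86833410), which encodes HIF-2 alpha and is known from endothelium and other specialised cells, ranged from 353 to 755 normalized counts in WT and from 641 to 764 in KO. Its groups overlapped, with a log2 fold change of 0.45 ± 0.27 (limma adjusted p = 0.375). The 10 endothelial markers took 0.00839 to 0.0135% of counts in WT and 0.0101 to 0.0119% in KO, also overlapping. Arnt (chr3:95434388-95497240), the constitutive partner of all 3 alpha subunits, had means of 398 ± 77.4 in WT and 398 ± 60.6 in KO (SD, n = 3). Its log2 fold change was 0.00 with a 95% interval from -0.44 to 0.45, which leaves room for a moderate change either way.

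The 2 prolyl hydroxylases among the members were lower in every KO library than in any WT library. Egln3 (chr12:54178981-54203860) encodes PHD3, a hydroxylase that is itself a target of the factors it marks. Its normalized counts were 54.8, 70.8 and 97.9 in WT and 27.5, 29.3 and 21.7 in KO. The highest KO library stood well under the lowest WT library, and the log2 fold change was -1.45 ± 0.28 (limma adjusted p = 0.183). Egln1 (chr8:124908587-124949324), which encodes PHD2, the main oxygen sensor of most cells, had 408, 473 and 740 in WT and 300, 341 and 271 in KO. The gap between the groups was small beside the spread in WT, and the log2 fold change was -0.79 ± 0.23 (limma adjusted p = 0.183). Egln2, which encodes the third hydroxylase and stands in the wider oxygen-sensing list, had means of 396 ± 38.0 in WT and 374 ± 22.7 in KO (SD, n = 3), with overlap and a log2 fold change of -0.08.

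Among the targets, Bnip3 (chr7:138890836-138909519), which encodes a mitochondrial receptor for mitophagy, showed the widest difference of the members. It had 392, 636 and 942 normalized counts in WT and 209, 230 and 133 in KO. WT was 3.32 times KO on the log2(value + 1) scale, a log2 fold change of -1.73 ± 0.35 (limma adjusted p = 0.183). Vegfa (chr17:46016993-46032369), the main signal for vessel growth, had 473, 587 and 859 in WT and 320, 372 and 297 in KO. Its groups were likewise separate, at -0.92 ± 0.23 log2 units (limma adjusted p = 0.183). Ankrd37 (chr8:45996902-46005707), an ankyrin repeat gene induced by hypoxia, had only 3.43 to 23.4 normalized counts over the 6 libraries, and its groups overlapped. Car9 (chr4:43506966-43513729) had 1, 6 and 4 recovered reads in WT and 0, 0 and 2 in KO.

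**Figure D2:**
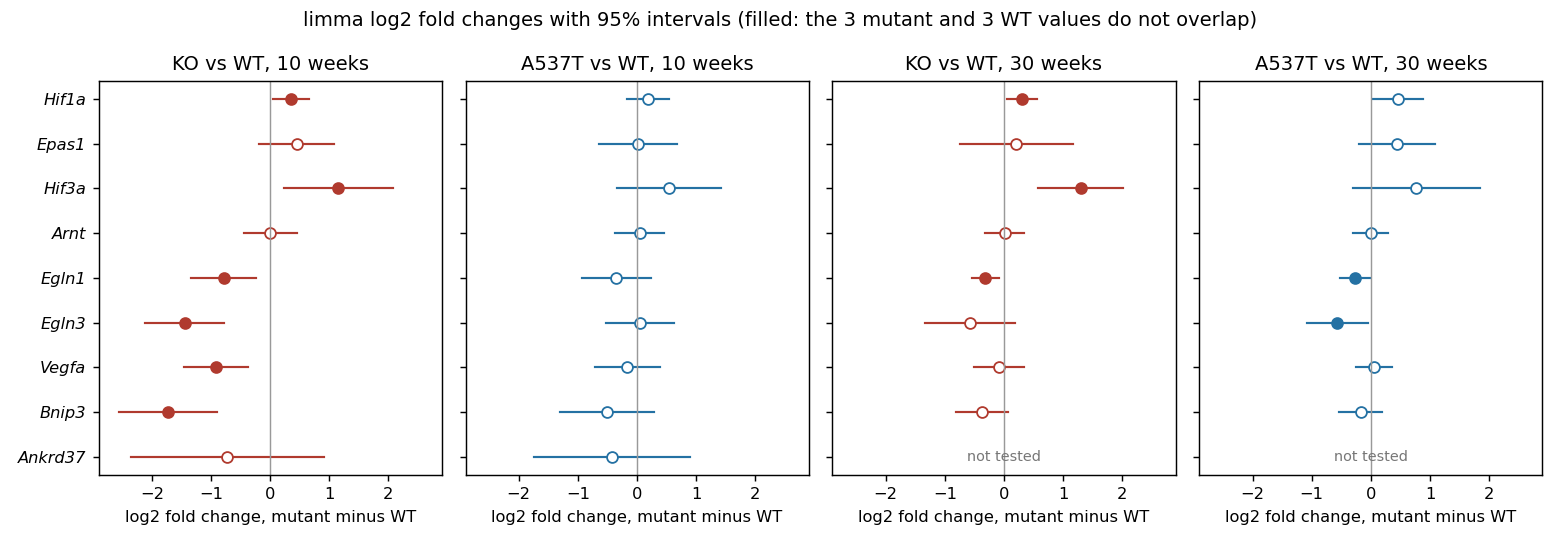
log2 fold change of each tested member (mutant minus WT, horizontal axis) with its 95% limma interval in the 4 comparisons, filled where the 3 mutant and 3 WT values do not overlap. KO at 10 weeks holds 6 filled points, A537T at 10 weeks none, KO at 30 weeks 3 and A537T at 30 weeks 2, and no member passed the adjusted threshold in any of them.

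The tool and 1 library decided whether members were called at 10 weeks. On the recovered whole reads DESeq2 called 3 members in KO, all lower: Bnip3 (log2 fold change -1.77, adjusted p = 0.000346), Egln3 (-1.50, 0.00755) and Vegfa (-0.94, 0.0151), where it called 4.74% of genes. edgeR's quasi-likelihood test on the same reads called none. Without WT library 10AF, which had the least skeletal muscle RNA of the WT libraries and the most seminal vesicle RNA, limma called 6 members (Epas1, Hif3a, Egln1, Egln3, Vegfa and Bnip3) and 19.2% of all genes.

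The differences went with the share of skeletal muscle RNA. Bnip3, Egln3, Vegfa and Egln1 each had the same order over the 6 libraries as that share, from WT library 12AF with 12.6% skeletal muscle to KO library 15AF with 0.0594%. Of all genes tested, 3.37% had that exact order. The share of seminal vesicle markers ran in exactly the opposite order over these libraries, so the orders of the 2 tissues cannot be told apart here. Within WT alone, Bnip3 went from 392 to 942 normalized counts as the muscle share went from 3.89 to 12.6%, while Hif3a went from 44.0 down to 16.3. With a muscle score as covariate in limma, the log2 fold changes in KO became -1.01 ± 0.51 for Bnip3, -1.03 ± 0.47 for Egln3, -0.50 ± 0.36 for Vegfa and -0.37 ± 0.37 for Egln1. Those of Hif3a and Hif1a became 1.08 ± 0.70 and 0.10 ± 0.21, and Ankrd37 turned from -0.72 to 1.36 ± 0.67. The limma adjusted p was 0.999 for each of these, which was also the smallest over all genes in this fit. Muscle shares of KO and WT do not overlap, and the seminal vesicle share runs in the opposite order. This fit therefore cannot separate muscle from genotype or from seminal vesicle RNA. Leaving out library 12AF, an alternative chosen after the values were seen, gave 4 members lower and 2 higher without overlap, against 16.4% and 13.9% of genes. Groups that are separate stay separate when a library is removed, so this alternative could not have undone the separation.

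One set of single libraries was chosen after the values were seen: KO library 14AF, whose 2.04% of skeletal muscle lies between A537T libraries 18AF (1.55%) and 17AF (3.21%). In RPM, Bnip3 was at 28.2 in that KO library and at 41.1 and 55.4 in the A537T libraries. Egln3 was at 3.59 beside 8.998 and 9.11, and Vegfa at 45.7 beside 62.2 and 63.3. Egln1 was nearer, at 41.8 beside 43.8 and 48.7. Hif1a was lower in the KO library, at 59.5 beside 65.0 and 66.2, the opposite side from its comparison with WT, and Hif3a higher, at 9.20 beside 5.40 and 5.93. Seminal vesicle markers took 6.55% of counts in library 14AF and 0.0374 and 0.136% in the pair of A537T libraries, and these are single libraries with no test. KO and A537T also stand in separate tables, where the shared WT library 10AF had 417 and 407 recovered reads for Egln1.

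**Figure D3:**
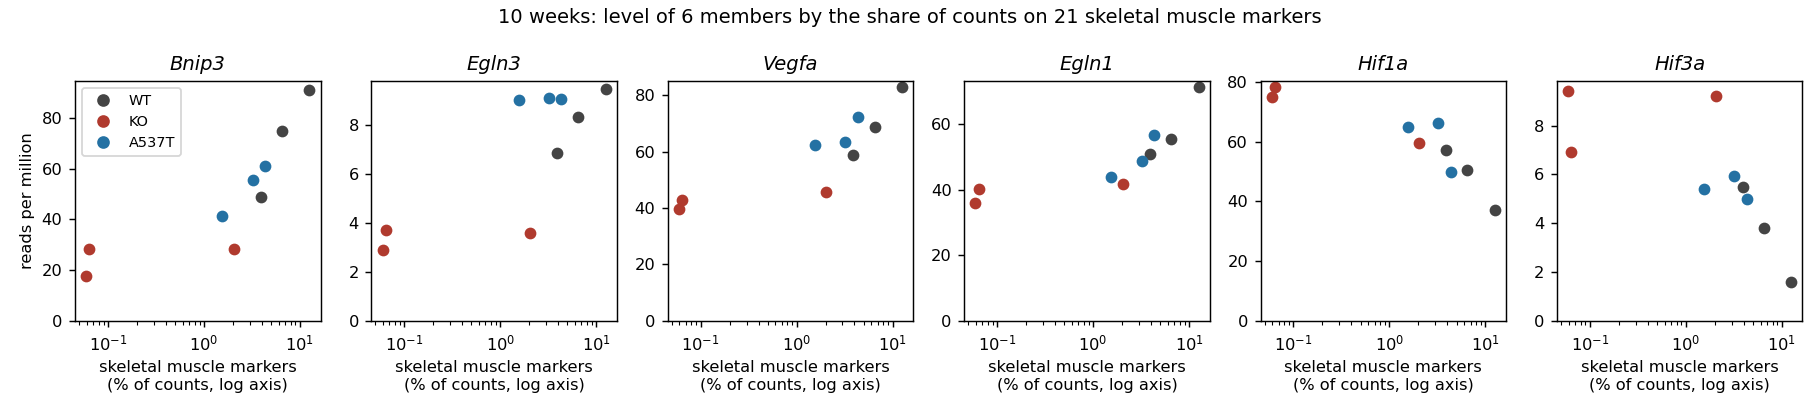
RPM of 6 members (vertical axes, starting at 0) against the percent of counts on 21 skeletal muscle markers (log axis) in the 9 libraries at 10 weeks, 1 point per library. Bnip3, Egln3, Vegfa and Egln1 are highest in the WT library with 12.6% muscle and lowest in KO library 15AF, with Hif1a and Hif3a lowest in the former.

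**Figure D4:**
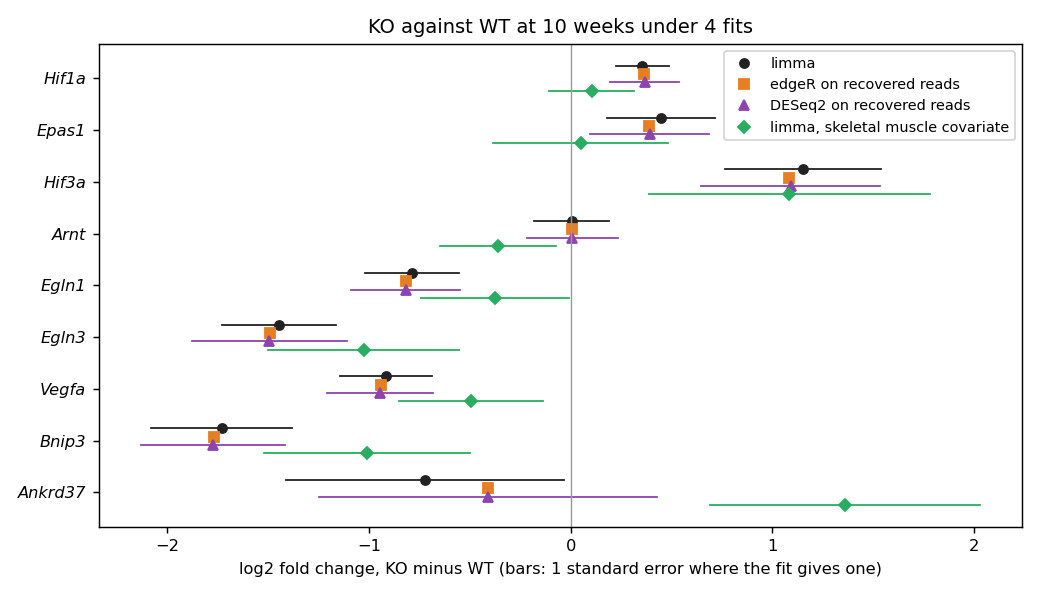
log2 fold change of the 9 tested members in KO at 10 weeks (horizontal axis) from limma, edgeR, DESeq2 and limma with the skeletal muscle covariate, with bars of 1 standard error where the fit gives one. The covariate brings Bnip3 from -1.73 to -1.01 and Egln3 from -1.45 to -1.03, and moves Ankrd37 across 0. Muscle shares of KO and WT do not overlap, so the covariate fit cannot separate muscle from genotype.

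The wider pathway was read from 4 lists of 67 further genes, chosen with earlier results of these data known. Of the 15 glycolytic hypoxia targets, 13 were lower in KO at 10 weeks and 10 of these without overlap, with a median log2 fold change of -0.83 beside -0.01 over all genes tested, of which 14.3% were lower without overlap. None passed the adjusted threshold in limma, while at an unadjusted p under 0.05 there were 11 lower and 1 higher, beside 11.5% and 7.97% of all genes. The lowest were Aldoa, an aldolase that muscle makes in bulk, at -3.21 ± 0.70, and Slc16a3, a lactate exporter, at -3.10 ± 0.84. Next came Hk2, a hexokinase of muscle and fat, at -2.33 ± 0.80 with overlap. Aldoa had 2 entries under its symbol, of which the first was used. Pfkfb3, which raises the main activator of glycolysis, had 9533, 6367 and 10596 normalized counts in the KO libraries and 5379, 1338 and 548 in WT, higher in every KO library. Its order over the 6 libraries was that of the seminal vesicle share, which was 9.47, 6.55 and 10.3% in KO and 4.64, 1.76 and 0.000808% in WT in the same order of libraries. Slc2a1, the basal glucose transporter, had a log2 fold change of 0.57 with overlap. Of 28 other hypoxia targets tested, 19 were lower (median -0.31), and Angptl4, a regulator of lipid uptake, stood at 0.95 with overlap. The 14 oxygen-sensing genes had a median of -0.08, and the 9 VEGF ligands and receptors one of -0.15. The libraries also differed in skeletal muscle RNA, a tissue rich in glycolytic enzymes, and in seminal vesicle RNA, and the part of either in the lists and in Pfkfb3 was not tested.

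The second question was whether the A537T substitution, which leaves Elac2 RNA expressed, has a like profile at 10 weeks. By immunoblot the authors report less ELAC2 protein in A537T prostates than in WT. No member was free of overlap between the groups, where 11.9% of the 15131 genes tested were. None passed limma's adjusted threshold (0.0% of genes) and none had an unadjusted p under 0.05 (6.43% of genes). On the recovered reads edgeR called no member, nor did DESeq2, which called 0.595% of genes. Bnip3 had 402, 641 and 952 normalized counts in WT and 547, 480 and 323 in A537T. The A537T values lay under the middle WT value, 1 of them under all of WT, with a log2 fold change of -0.51 ± 0.34 (limma adjusted p = 0.767). Egln3 had 57.0, 71.8 and 100.1 in WT and 80.9, 79.0 and 70.6 in A537T, all inside the WT range, at 0.05 ± 0.24. The 95% interval of Egln3 ran from -0.53 to 0.62. Hif3a stood at 0.54 ± 0.37, Egln1 at -0.35 ± 0.25, Hif1a at 0.18 ± 0.15, Vegfa at -0.16 ± 0.23, and Arnt and Epas1 at 0.04 and 0.01. Adipocyte markers took 0.0447 to 0.0471% of counts in A537T and 0.0207 to 0.0328% in WT, and erythroid markers 0.0302 to 0.0480% and 0.0146 to 0.0204%, both higher without overlap, and their part in these values was not tested. Of all genes, 418 were higher and 555 lower at an unadjusted p under 0.05, and 610 and 393 when scaled to the same total.

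Within each genotype at 10 weeks, Bnip3, Egln3, Vegfa, Egln1 and Ankrd37 again followed the order of the skeletal muscle share, in A537T as in WT, where 9.85% of all genes tested did. With the muscle covariate Egln1, Vegfa, Bnip3 and Ankrd37 turned to 0.21, 0.34, 0.30 and 0.59, and Epas1 to -0.33. Of the glycolytic targets 12 of 15 were lower in A537T (median -0.47), 5 of them at an unadjusted p under 0.05, where 3.67% of all genes were. Pfkfb3 stood here on the other side, with 383, 303 and 219 normalized counts in A537T beside 5644, 1378 and 567 in WT. Seminal vesicle markers took 0.0374 to 0.191% of counts in A537T and 0.000758 to 4.46% in WT, and their part in Pfkfb3 was not tested. Vldlr, a lipoprotein receptor, was lower without overlap at -1.55 ± 0.44, and Lox, a collagen cross-linking enzyme, higher without overlap at 0.94 ± 0.27 (limma adjusted p = 0.746 for each). Nrp2, a coreceptor for VEGF, stood at 1.29 ± 0.57 and Angptl4 at 1.06 ± 0.47, both with overlap.

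In KO at 30 weeks, Hif3a and Hif1a were higher without overlap, where 7.92% of 14729 genes were, and Egln1 lower without overlap, where 8.41% were. None passed limma's adjusted threshold (0.0% of genes), and the same 3 had an unadjusted p under 0.05, where 5.56% of genes were higher and 5.41% lower (819 and 797, or 825 and 519 when scaled to the same total). edgeR called no member, nor did DESeq2, which called 1.93% of genes. Hif3a had 17.7, 30.0 and 22.8 normalized counts in WT and 57.8, 75.6 and 44.2 in KO. KO was 2.46 times WT, a log2 fold change of 1.30 ± 0.30 (limma adjusted p = 0.378). Its highest value was in KO library 5AF, the one KO library of this age with no seminal vesicle RNA, and leaving out the other 2 KO libraries gave 1.68, a value that rests on library 5AF alone. Library 5AF also held 0.000935% of dorsal and anterior lobe secretion markers, beside 2.61 and 2.17% in 4AF and 6AF. Hif1a had 483, 433 and 437 in WT and 604, 532 and 536 in KO, at 0.30 ± 0.11 (limma adjusted p = 0.410). Egln1 had 382, 373 and 397 in WT and 301, 316 and 306 in KO. Each group was tight, with means of 384 ± 12.0 and 308 ± 7.37 (SD, n = 3), and the log2 fold change was -0.32 ± 0.10 (limma adjusted p = 0.393).

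The targets that were lowest at 10 weeks overlapped at 30 weeks. Bnip3 had 463, 363 and 373 in WT and 258, 391 and 286 in KO, at -0.37 ± 0.18. Vegfa stood at -0.08 ± 0.18, with a 95% interval from -0.51 to 0.34. Egln3 had 40.2, 55.3 and 54.5 in WT and 20.9, 41.9 and 40.7 in KO, at -0.57 ± 0.32, with 1 KO library far below the rest. Epas1 went with seminal vesicle RNA. It had 476 and 548 normalized counts in the 2 KO libraries that held that RNA, 181 in the one that did not, and 263 to 377 in WT, so that its log2 fold change of 0.21 became -0.79 without those 2 libraries, again with library 5AF alone, which is assumed to vary like the WT group. Arnt was at 0.01 ± 0.14.

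In A537T at 30 weeks, Egln1 and Egln3 were lower without overlap, where 9.40% of the 14789 genes tested were, and no member was higher without overlap (9.18% of genes). No member passed limma's adjusted threshold (0.0% of genes), and at an unadjusted p under 0.05 there were 2 lower and 1 higher, where 6.28% and 7.35% of genes were (929 and 1087, or 594 and 1233 when scaled to the same total). edgeR called no member, nor did DESeq2, which called 3.19% of genes. Egln3 had 40.9, 55.1 and 54.4 normalized counts in WT and 32.1, 34.7 and 32.9 in A537T. The A537T values were close together and under all WT values, at -0.57 ± 0.22 (limma adjusted p = 0.338). Egln1 had 380, 372 and 396 in WT and 294, 345 and 318 in A537T, at -0.26 ± 0.11 (limma adjusted p = 0.357). Egln2, from the wider list, was on the other side, higher without overlap with means of 469 ± 22.9 in A537T and 383 ± 22.9 in WT (SD, n = 3), at 0.29 ± 0.10 (limma adjusted p = 0.314).

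The alpha subunits in A537T at 30 weeks split by library. Hif1a had 470, 421 and 426 in WT and 665, 459 and 725 in A537T, Epas1 had 526, 285 and 560 in A537T beside 271, 388 and 316 in WT, and Hif3a 53.2, 23.1 and 76.7 beside 20.1, 34.4 and 26.7. In each case the lowest A537T value belongs to library 8AF, which held no seminal vesicle RNA and lay inside the WT range. The log2 fold changes were 0.46 ± 0.18, 0.45 ± 0.27 and 0.77 ± 0.46. Without library 8AF limma called Hif1a (0.66, adjusted p = 0.0174) and Epas1 (0.75, 0.0415), with 8.27% of all genes called, and with a seminal vesicle covariate the 3 values became 0.09, -0.09 and -0.07. Since 8AF is the only A537T library of this age without that RNA, and no WT library has it, the values with the covariate rest on that 1 library. Luminal epithelial markers also took 14.7% of counts in 8AF, beside 7.32 and 4.47% in 7AF and 9AF. Macrophage markers took 0.00906 to 0.0210% of counts in A537T and 0.00655 to 0.0071% in WT at this age, and plasma and B cell markers 0.00988 to 0.0348% and 0.00277 to 0.00374%, both higher without overlap, and their part in these values was not tested. Bnip3 and Vegfa overlapped, at -0.17 ± 0.15 and 0.05 ± 0.13, and Arnt was at -0.01 ± 0.13. Ankrd37 had 7 to 12 recovered reads in A537T and 3 to 8 in WT, and Car9 0 to 1 and 1 to 2.

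**Figure D5:**
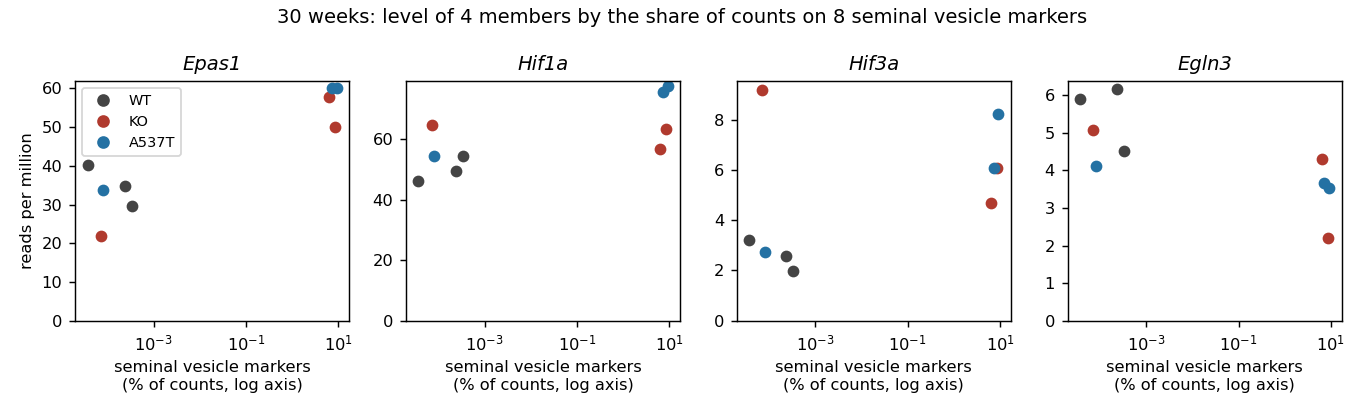
RPM of 4 members (vertical axes, starting at 0) against the percent of counts on 8 seminal vesicle markers (log axis) in the 9 libraries at 30 weeks, 1 point per library. The 4 mutant libraries with 6.32 to 9.17% of counts on these markers are the highest for Epas1, while the highest Hif3a is in KO library 5AF, which holds next to none.

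Of the wider lists in KO at 30 weeks, 10 of 15 glycolytic targets were lower (median -0.33), 7 of them at an unadjusted p under 0.05, where 5.41% of all genes were. In A537T 11 of 15 were lower (median -0.21), 4 of them at that level, where 6.28% of all genes were, with medians over all genes tested of -0.01 in both. Pfkfb3 was higher without overlap in both mutants, at 4.13 ± 1.43 in KO and 4.01 ± 1.41 in A537T. It had 9789, 172 and 7196 normalized counts in KO and 6364, 153 and 8445 in A537T, beside 90.9, 154 and 158 in WT of the KO table and 86.6, 147 and 151 in WT of the A537T table. The 4 high libraries are those with 6.32 to 9.17% seminal vesicle RNA, and in the mutant libraries without it, 5AF and 8AF, Pfkfb3 stood close to the highest WT value. Cited2, which encodes an inhibitor that competes with the factors for their coactivators, was lower without overlap in both, at -0.87 ± 0.23 in KO and -0.93 ± 0.22 in A537T (limma adjusted p = 0.390 and 0.249). The comparisons share their WT libraries, so the 2 values are not independent. In KO, Angptl4 and Bhlhe40, a transcriptional repressor, were higher without overlap at 1.02 ± 0.22 and 0.81 ± 0.32, and Ak4, a mitochondrial adenylate kinase, lower without overlap at -0.75 ± 0.22. P4ha2, a collagen prolyl hydroxylase, stood at -0.49 with overlap. In A537T, Vldlr was higher without overlap at 1.04 ± 0.15 (limma adjusted p = 0.153), as was Flt1, a VEGF receptor, at 0.71 ± 0.32, while Hk2 and P4ha2 stood at -0.52 and -0.56 with overlap. None of the listed genes passed the adjusted threshold in either mutant.

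For the change of a genotype's difference with age, an exact 2-sided permutation test shuffled genotype labels inside an age, with 20 tests in all (10 members in 2 lines). Its null is no genotype difference at either age. The p-values are exact for that null and not for an equal difference at both ages. The KO difference of Bnip3 was 1.36 log2 units less negative at 30 than at 10 weeks (exact p = 0.135), and that of Vegfa 0.83 less negative (exact p = 0.095). That of Egln3 in A537T was more negative by -0.61 (exact p = 0.105). None passed after adjustment, the smallest adjusted p being 0.675. The smallest p these permutations can give is 0.005, so that over 20 tests, with the sparse Ankrd37 and Car9 among them, 1 member passing alone could reach no less than 0.1, and the adjusted values say nothing of stability between the ages. Hif3a in KO stood at 1.15 and 1.30. As levels side by side, without a test since the ages stand in separate tables, Vegfa in WT was at 70.3 ± 12.0 RPM at 10 weeks and 33.4 ± 1.24 at 30 weeks, and Bnip3 at 71.5 ± 21.2 and 44.4 ± 6.93 (SD, n = 3). The 10-week WT libraries are also those with 3.89 to 12.6% skeletal muscle.

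The members also differed in which genes they resembled over the 18 libraries, by Pearson correlation of log2 RPM among 14067 genes. The libraries share tissue make-up and depth, so these values are a description. Vegfa was most like AI464131 (r = 0.973), Flnc, a filamin of muscle (0.970), and Mef2c, a muscle transcription factor (0.970). Among the genes like Bnip3 were Kif1b (0.929) and Phkb (0.927), the latter a subunit of glycogen phosphorylase kinase. Egln1 was most like Lgalsl (0.953), Ldha, the lactate dehydrogenase of muscle and hypoxic cells (0.952), and Lrrc20 (0.947), and Egln3 most like Tuba4a (0.895), Psmd1 (0.873) and Opa3 (0.868). The alpha subunits had other nearest genes: Bod1l (0.945), Zfp950 (0.923) and Tgfbr1 (0.912) for Hif1a, Bag3 (0.944), Maob (0.940) and Adamts15 (0.935) for Epas1, and Fmr1 (0.898), Abi2 (0.861) and Zfp74 (0.861) for Hif3a. Arnt was nearest to Atxn7l3 (0.885), Myo19 (0.859) and Usp7 (0.828). For the low genes the nearest values were weaker, with Aimp2 (0.764), Cfap298 (0.741) and Actn3 (0.728) for Ankrd37, and Csgalnact1 (0.754), Dnah14 (0.736) and Ptpmt1 (0.682) for Car9. Among the members themselves, Egln1 went with Egln3 (0.831), Vegfa (0.818) and Bnip3 (0.805), and Hif1a with Hif3a (0.795), while Hif1a and Egln1 ran opposite (-0.684). Centred within the 6 groups, Egln1 and Bnip3 were at 0.876, while Egln1 and Egln3 went to 0.546, Egln1 and Vegfa to 0.352, and Egln3 and Vegfa from 0.725 to -0.111.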

How the data were processed

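RNA from ventral and lateral prostate lobes was sequenced in 18 libraries. Per the submitters' processing notes and methods, reads were trimmed (Trim Galore 0.4.1, cutadapt 1.18), aligned with STAR 2.7.3a to GRCm38 and quantified with Salmon on GENCODE vM24, and the authors imported counts with tximport 1.14 and normalized them in DESeq2 1.26. The deposited values are signal, that is counts per gene scaled by size factors set within each 6-library table. Files of the authors' own fold changes and s-values were not used. Column names identify libraries without genotype or replicate number, so columns were tied to groups and not to single mice: those shared by both tables of an age were taken as WT, the others as the mutant of that table.

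limma 3.58.1 in R 4.3.3 was fitted per table to log2(normalized count + 1), for genes with a mean of at least 10, and p-values were adjusted over all genes (threshold 0.05). Whole reads were recovered in all columns within a tolerance of 0.1 read, except that 4 columns with a size factor near 1 could not be checked automatically. They served edgeR 4.0.16 and DESeq2 1.42.0 as alternatives. The limma step was tested on simulated data. Counting intervals cover counting error only. GENCODE vM21 (GRCm38) gave coordinates and exon lengths. The members and lists were chosen with earlier results of these data known. Named pathway genes are the 3 highest and 3 lowest log2 fold changes among listed genes with a mean of at least 50. Egln2 and Arnt2 were named outside this rule.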

Additional observations from a re-analysis of the deposited data

How the results depend on the processing

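With 3 libraries a group and no gene past the adjusted limma threshold in any comparison, these data limit what can be called. No paired analysis was possible because the columns carry no replicate number. DESeq2 on recovered reads called 3 members in KO at 10 weeks, and leaving out a library in turn gave 0 to 6 there and 0 to 2 in A537T at 30 weeks, the highest without libraries 10AF and 8AF. Counts of members called stayed at 0 under all other alternatives run. Scaling to the same total moved the median over all genes at 10 weeks by 0.21 in KO, from -0.01 to 0.20, and by 0.14 in A537T, from 0.01 to 0.15.

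Directions turned as follows, and the cause was not tested. With the skeletal muscle covariate, Arnt and Ankrd37 in KO at 10 weeks became -0.36 and 1.36, and in A537T Epas1 became -0.33, Arnt -0.0034, Egln1 0.21, Vegfa 0.34, Bnip3 0.30 and Ankrd37 0.59. Epas1 in A537T at 10 weeks was -0.0510 with edgeR and -0.0477 with DESeq2. At 30 weeks Epas1 in KO became -0.67 with the seminal vesicle covariate and -0.79 without the libraries that hold that RNA, which leaves 1 mutant library, assumed to vary like the WT group. In A537T those 2 alternatives, which rest on 1 mutant library likewise, gave 0.19 and 0.23 for Elac2, -0.0934 and -0.17 for Epas1, -0.0737 and -0.19 for Hif3a, -0.0286 and -0.0380 for Vegfa, and 0.00978 and 0.0512 for Bnip3. Scaled to the same total, Arnt in A537T at 30 weeks became 0.0181, and the differences between ages became -0.0661 for Hif3a and -0.21 for Arnt in KO and -0.0297 for Egln1 in A537T.

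Leaving out 1 library in turn, ranges that crossed 0 were, for Arnt, -0.12 to 0.15 (KO, 10 weeks), -0.0566 to 0.12 (KO, 30 weeks), -0.0808 to 0.19 (A537T, 10 weeks) and -0.0708 to 0.10 (A537T, 30 weeks). For A537T at 10 weeks they were -0.14 to 0.26 for Egln3, -0.26 to 0.30 for Epas1, -0.35 to 0.0700 for Vegfa and -0.86 to 0.0490 for Ankrd37. At 30 weeks the Vegfa range was -0.20 to 0.11 with KO and -0.0504 to 0.11 with A537T, and that of Epas1 with KO was -0.0892 to 0.71. For the difference between ages in KO they were -0.13 to 0.0185 for Hif1a, -0.54 to 0.26 for Epas1, -0.16 to 0.53 for Hif3a and -0.14 to 0.13 for Arnt. In A537T they were -0.14 to 0.70 for Hif3a, -0.19 to 0.0752 for Arnt, -0.16 to 0.26 for Egln1 and -0.0196 to 0.40 for Vegfa. Of the alternatives for single genes that left out no library one by one, 220 kept the direction and the side of the threshold of a log2 fold change, 3 passed it and 23 turned.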
